A study of Mus musculus with 6 samples.

Results

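Cadherins are calcium-dependent adhesion proteins, and the genes described here are those whose symbol in the deposited table is Cdh with a number, Pcdh with a number, Pcdha, Pcdhb or Pcdhg with its cluster suffix, or Celsr1 to Celsr3. The table held 94 such rows, and 91 of them had a value in all 6 libraries, among 20323 genes with values. They were 22 Cdh genes, 11 non-clustered protocadherins, 55 clustered protocadherins (12 of the alpha, 22 of the beta and 21 of the gamma cluster) and the 3 Celsr genes. Cdh17, Pcdha4 and Pcdha9 were blank in every library. The members were chosen by name, not by their values. One further row carries only a gene number, which RefSeq pairs with Pcdhgb8. It has no symbol in the table and was not counted.

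RNA was sequenced from GFP-positive cells of the hippocampus of Nestin-CreERT2;Rosa26-mGFP mice, collected with magnetic beads, with 1 brain behind each library. In such animals the Nestin promoter drives an inducible Cre, so GFP marks the cells that had Nestin-driven Cre activity and whatever descends from them, and not progenitors alone. Every animal, controls included, was fed cuprizone, a copper chelator that strips myelin, for 10 weeks and was then left to recover for 4 weeks. The vehicle group (n = 3) was given saline with 0.1% bovine serum albumin, and the other group (n = 3) Nrg-1β1, a growth factor that binds ErbB receptors. Its dose was 60 µg/kg/day by the series text, whereas the sample labels print the number without the micro sign, so the unit is uncertain. The labels give neither the age nor the sex of the animals. The libraries are called Vehicle 1 to 3 and Nrg 1 to 3 below.

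Classical cadherins (type I and type II Cdh genes) hold neighbouring cells together by binding the like cadherin on the other cell, and their tails are tied to actin through catenins. In the brain N-cadherin (Cdh2) joins neural stem cells, astrocytes and synapses, while VE-cadherin (Cdh5) is the junction cadherin of blood vessels. Non-clustered protocadherins are weaker adhesion molecules with roles in axon growth and synapse formation, and some bind the WAVE complex that regulates actin. The clustered genes stand in 3 neighbouring arrays, from which each neuron switches on a few, and the resulting surface code lets a neurite recognise its own branches. Celsr genes encode large 7-pass cadherins of planar cell polarity.

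Values are log2(normalized count + 4) as deposited. A difference is the mean of the Nrg group minus the mean of the vehicle group on that scale, with its standard error, and adjusted p-values are from limma over all 20323 genes with Benjamini-Hochberg adjustment and a threshold of 0.05. The scale understates changes of genes with few reads. Depth was very uneven: Vehicle 1 and Vehicle 3 held 72953034 and 47076006 reads, Vehicle 2 held 1075813, and the Nrg libraries held from 567073 to 1327003. One read was worth 0.0605 normalized counts in the deep pair and from 3.04 to 5.17 in the other libraries. Depth and group can therefore not be told apart except through Vehicle 2. Xist had 3255, 216 and 1045 reads in Vehicle 1 to 3, against 2, 3 and 1 in the Nrg libraries, and the Y-linked Ddx3y had 82, 1 and 1994 against 29, 22 and 15. Vehicle 3 thus held both transcripts, and the groups differed in Xist, so sex and treatment cannot be told apart either. Over all genes 216 passed the threshold (1.06%), of which 89 were higher and 127 lower in the Nrg group, and leaving out any single library left between 0 and 56.

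The labelled cell type, neural progenitor cells, had few reads in several of its defining genes. Dcx, of neuroblasts, had 88, 1 and 224 reads in the vehicle and 2, 12 and 4 in the Nrg libraries, and the proliferation gene Mki67 had none in Vehicle 2 or Nrg 1. Sox2, of stem cells and glia, was well covered, with 172 and 228 reads in Vehicle 2 and Nrg 3. A list of 8 mature oligodendrocyte genes summed to 92552 to 189961 normalized counts in the vehicle and 107825 to 139945 in the Nrg libraries. In such mixed samples fewer cells of a type and less RNA per cell cannot be told apart.

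Cdh20 and Pcdh17 had the most Nrg reads, 118 and 238, among the members with an unadjusted p under 0.05, and the 250 bases upstream of their start sites are shown to let a reader see what stands before these genes. The sequences are from RefSeq on GRCm38.p6, run 5′ to 3′ on the plus strand and end at the last base before the start site. The window of Cdh20 is chr1:104768270-104768519 and that of Pcdh17 is chr14:84443313-84443562. The capitals mark CCAAT, a common promoter box, on either strand (ATTGG on the other).
Cdh20: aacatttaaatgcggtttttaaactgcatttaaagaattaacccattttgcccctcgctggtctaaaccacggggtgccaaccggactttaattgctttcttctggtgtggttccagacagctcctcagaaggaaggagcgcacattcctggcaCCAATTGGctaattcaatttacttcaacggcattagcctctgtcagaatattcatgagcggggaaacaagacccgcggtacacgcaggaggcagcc
Pcdh17: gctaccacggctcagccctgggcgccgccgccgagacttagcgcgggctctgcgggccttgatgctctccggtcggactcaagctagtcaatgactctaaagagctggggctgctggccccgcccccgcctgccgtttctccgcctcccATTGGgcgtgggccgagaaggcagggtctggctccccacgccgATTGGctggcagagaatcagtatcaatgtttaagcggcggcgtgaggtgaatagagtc
In Cdh20 the 2 matches overlap in a single palindromic stretch, and in Pcdh17 the 2 matches are apart and both on the minus strand. The Pcdh17 window also holds the GC box GGGCGG, on its minus strand, which the Cdh20 window does not, and their GC contents were 64.8% and 47.6%. Both motifs were chosen after the sequences were read. CCAAT, searched on both strands, was present in 33.8% of all 32851 RefSeq windows of this length and in 15 of the 27 windows (55.6%) that matched 24 of the 91 members. The GC box was present in 32.7% of all windows and in 10 of those 27 (37.0%). A match is a string of letters, not evidence of binding.

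No member of the family passed the threshold in the comparison of Nrg-1β1 with vehicle, against 1.06% of all genes. By unadjusted p under 0.05 there were 6 members (6.59%), against 13.0% of all genes, so the family was no richer in small p-values than the table as a whole. limma-voom on the recovered reads also called 0 members, but with the deposited scaling it called 0.108% of all genes and with total reads 0.0689%, so a count of 0 among 91 says little there. Among the 14 members whose normalized count averaged 50 or more, in a fit of the 6731 genes of that level, 0 were called, against 0.728% of that set. When the libraries were aligned on their medians, which moved the median difference of all genes from 0.03 to 0.25, 3 members were called, Cdh5, Cdh1 and Cdh3, among 499 genes (2.46%). In 8 members (8.79%) every Nrg library was above every vehicle library, against 7.37% of all genes, and in 6 members (6.59%) every Nrg library was below, against 10.4%. The first were Cdh20, Celsr3, Pcdhb4, Pcdhb9, Pcdhb18, Pcdhga5, Pcdhga8 and Pcdhgb4, and the second Cdh1, Cdh5, Pcdha3, Pcdhb1, Pcdhb12 and Pcdhb22. Depth limits most of these rows: 54 of the 91 members had fewer than 10 reads in the 3 Nrg libraries together, and 11 had at least 10 reads in every library. Those 11 were Cdh2, Cdh11, Cdh20, Cdh22, Pcdh1, Pcdh7, Pcdh9, Pcdh10, Pcdh17, Pcdhgc3 and Celsr2.

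**Figure D1:**
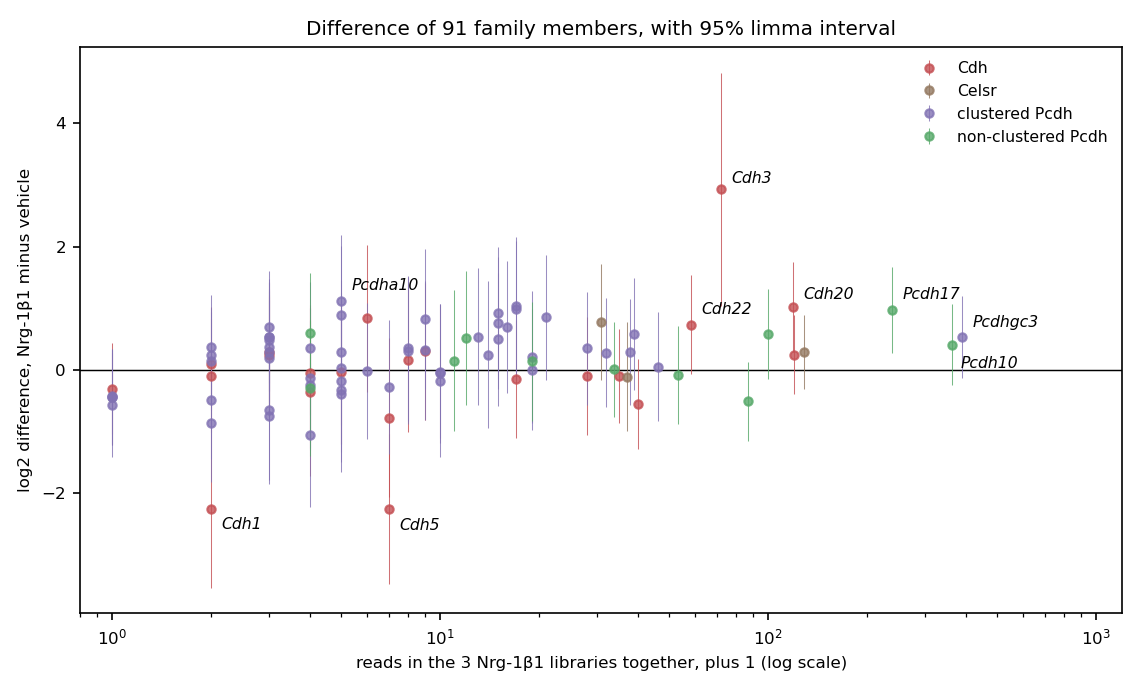
Log2 difference (Nrg-1β1 minus vehicle) of each of the 91 members against its reads in the 3 Nrg-1β1 libraries together plus 1, on a log axis, coloured by class, with the 95% limma interval as a bar. Cdh5 and Cdh1 lie lowest at -2.25 with 6 reads and 1 read, Cdh3 lies highest at 2.93, and the members with the most reads, Pcdhgc3 and Pcdh10, lie at 0.54 and 0.41.

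Of the 22 Cdh genes, 10 had a positive and 12 a negative difference, with a median of -0.05, against 52.2% positive and a median of 0.03 over all genes. The extremes of the whole family were in this class. VE-cadherin and E-cadherin lay lower in all Nrg libraries, and P-cadherin lay far higher in 2 of them, but none passed the threshold. An unadjusted p under 0.05 (limma) was found for 4 of the 22 Cdh genes (18.2%), against 13.0% of all genes.

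Cdh5, VE-cadherin, had log2 values of 4.70, 5.65 and 7.41 in Vehicle 1 to 3 and of 3.84, 3.83 and 3.33 in Nrg 1 to 3. The groups did not overlap, and Vehicle 3 was the highest library. The difference was -2.25 ± 0.58 (SE), with an adjusted p of 0.0638 by limma. Only 2 reads lay behind each Nrg value, whereas Vehicle 2, of similar depth, had 15. The pooled normalized count was 11.2 times higher in the vehicle than in the Nrg group (95% interval 5.13 to 30.5, counting error only), and 5.54 times higher (2.03 to 17.4) when Vehicle 2 stood alone for the vehicle group. Without Vehicle 3 the difference was -1.51 (adjusted p 0.616). Of all Cdh reads, Cdh5 took 4.36%, 7.46% and 21.3% in Vehicle 1 to 3, against 1.08%, 1.21% and 1.12% in the Nrg libraries.

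The endothelial markers were low in the same libraries as Cdh5. The 10 genes of that list, among them the claudin Cldn5 and the receptor Flt1, summed to 571 to 2875 normalized counts in the vehicle and 103 to 173 in the Nrg libraries. All 10 differences were negative and 7 of the 10 passed the threshold. Esam was at 0 in Vehicle 2 and Ly6a in Nrg 1. Cldn5 fell by 3.47 (adjusted p 0.00362, limma) and Flt1 fell by 2.52 (adjusted p 0.0124). Vehicle 3 was the highest library for both the list and Cdh5, and Vehicle 2 the lowest vehicle library for the list. The part of these cells in the Cdh5 values was not tested.

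Cdh1, E-cadherin of epithelia, had log2 values of 3.80, 4.28 and 5.84 in Vehicle 1 to 3 and of 2.00, 3.19 and 2.00 in the Nrg libraries. The groups did not overlap, Vehicle 3 was again the highest, and Nrg 1 and Nrg 3 had no read at all. The difference was -2.25 ± 0.61 (adjusted p 0.0799, limma). A single read in Nrg 2 stood against 164, 5 and 883 in the vehicle libraries, and the pooled ratio of 22.6 had a counting interval of 4.06 to 895. Vehicle 3 held 883 of the 1052 vehicle reads, and without it the difference was -1.64 (adjusted p 0.573). Against Vehicle 2 alone the ratio was 11.1 (1.24 to 525). Choroid plexus markers, which include Ttr, summed to 4479, 1593 and 4948 normalized counts in Vehicle 1 to 3 and 163 to 232 in the Nrg libraries. Vehicle 1 was the lowest vehicle library for Cdh1 but not for this list. In the list 7 of 8 differences were negative, 4 of 8 genes passed the threshold and Kcne2 was at 0 in all Nrg libraries. Meningeal and vascular fibroblast markers summed to 233, 235 and 604 in Vehicle 1 to 3 and 66.8 to 158 in the Nrg libraries. All 8 differences were negative and 0 passed the threshold. Col3a1, Dcn, Lum and Ogn were each at 0 in 1 Nrg library and Slc22a6 in 2 of them. The part of these cells in the Cdh1 values was not tested.

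**Figure D2:**
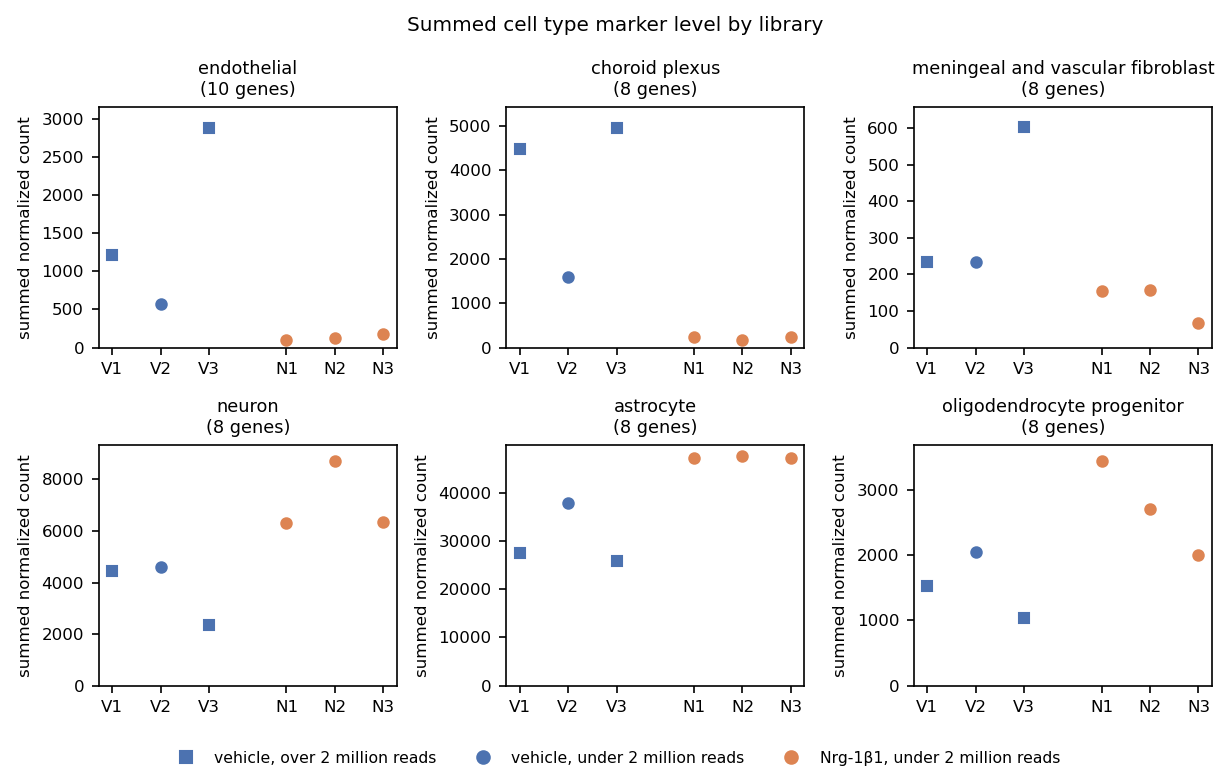
Summed normalized count of 6 cell type marker lists in each library (V1 to V3 vehicle, N1 to N3 Nrg-1β1), with squares for the deep libraries and circles for the shallow ones. The endothelial, choroid plexus and fibroblast sums of all 3 vehicle libraries are above those of all 3 Nrg-1β1 libraries, and the neuron and astrocyte sums are below.

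Cdh3, P-cadherin, another type I cadherin of epithelia, had the largest difference of the family, 2.93 ± 0.90, with an adjusted p of 0.126 (limma). Its log2 values were 3.56, 2.00 and 3.50 in Vehicle 1 to 3, against 7.45, 7.59 and 2.82 in the Nrg libraries. Nrg 1 and Nrg 2 were far above the other 4 libraries, while Nrg 3 lay within the vehicle range with 1 read, so the groups overlapped. Reads were 129, 0 and 121 against 33, 37 and 1, which set the pooled Nrg level 13.2 times above the vehicle level (9.99 to 17.2, counting error only). Without Nrg 3 the difference was 4.50, and without Nrg 1 it was 2.18 (adjusted p 0.102 and 0.564).

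Cdh20, a type II cadherin, was steady in the vehicle libraries at 6.36, 6.45 and 6.36, and higher in the Nrg libraries at 8.06, 7.51 and 6.66. Every Nrg library was above every vehicle library, although Nrg 3 by little. The difference was 1.02 ± 0.35 (adjusted p 0.180, limma), and without Nrg 1 it was 0.70. The pooled level was 2.10 times higher in the Nrg group (1.73 to 2.52), and 1.97 times (1.29 to 3.11) against Vehicle 2 alone. It took 15.5%, 13.4% and 10.0% of all Cdh reads in Vehicle 1 to 3, against 27.4%, 21.2% and 17.9% in the Nrg libraries.

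Cdh5, described above, is also a type II gene. Apart from Cdh5 and Cdh20 the groups of all type II genes overlapped, and no type II gene passed the threshold. Cdh22 lay at 6.41, 5.36 and 5.27 in the vehicle and at 6.60, 6.51 and 6.15 in the Nrg libraries, a difference of 0.74 ± 0.38 (adjusted p 0.434, limma), with Vehicle 1 inside the Nrg range. Cdh11, a cadherin of mesenchymal and neural cells, lay at 6.001, 6.55 and 6.74 against 6.15, 5.78 and 5.72, a difference of -0.54 ± 0.35 (adjusted p 0.546). Cdh10 and Cdh19 differed by -0.09 ± 0.36 and -0.10 ± 0.45. Cdh10 was the most even of them, between 5.58 and 5.98 over all libraries, and Cdh19 ran from 4.66 to 6.25, both ends in the Nrg group. Cdh6, Cdh8 and Cdh9, type II cadherins of particular neuron classes and their synapses, had 3, 4 and 1 reads in the Nrg libraries together, and differences between -0.09 and -0.04 that this depth cannot resolve. Cdh12, named after its values were seen, had the largest difference of the type II genes not yet described, 0.84 ± 0.57 (adjusted p 0.584), with 38, 0 and 13 vehicle reads against 0, 4 and 1 Nrg reads.

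Among the type I genes, Cdh2, N-cadherin, lay at 6.66, 7.39 and 7.29 in the vehicle and at 7.31, 7.20 and 7.56 in the Nrg libraries. The groups overlapped and the difference was 0.25 ± 0.30 (adjusted p 0.743, limma), with a 95% interval of -0.39 to 0.89. Its share of Cdh reads was 34.1% in Nrg 3 against 16.1% and 17.0% in Nrg 1 and Nrg 2, the reverse order of Cdh20. Cdh4, R-cadherin, differed by -0.15 ± 0.46 on 16 Nrg reads. Over the 5 type I genes 3 differences were positive, over the 13 type II genes 5, and over the 4 other Cdh genes 2.

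Those 4 were all thinly covered. Cdh13, T-cadherin, which lacks the usual tail and is held to the membrane by a lipid anchor, differed by -0.77 ± 0.61 (adjusted p 0.657, limma), with 3, 0 and 3 Nrg reads. Cdh23, the partner of Pcdh15 in the tip links of hair cells, differed by 0.16 ± 0.56 on 7 Nrg reads. Cdh26, an atypical cadherin, differed by -0.35 ± 0.65 on 3 Nrg reads, against 118, 0 and 338 reads in Vehicle 1 to 3. Cdh16, of kidney epithelium, had 2, 1 and 0 reads in the vehicle and 0, 1 and 0 in the Nrg libraries.

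**Figure D3:**
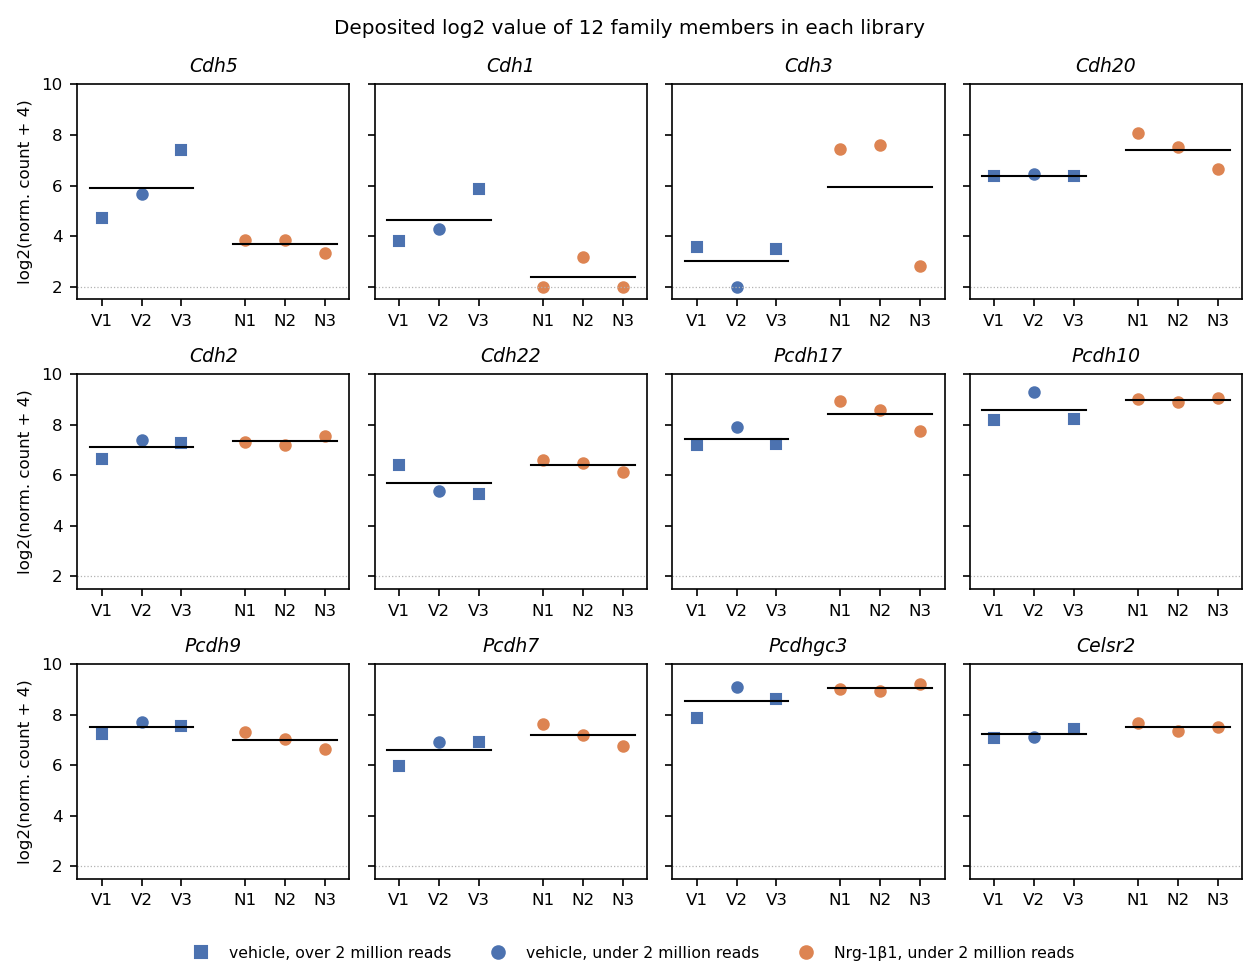
Deposited log2(normalized count + 4) of 12 members in each library, with the group mean as a black line and the value of 0 reads as a dotted line (V1 to V3 vehicle, N1 to N3 Nrg-1β1, squares for the deep libraries). Cdh5 and Cdh1 are lower and Cdh20 is higher in all 3 Nrg-1β1 libraries, Cdh3 is high in N1 and N2 alone, and the groups of the other 8 overlap.

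Non-clustered protocadherins had 8 positive and 3 negative differences, with a median of 0.15. Of these 11 genes 0 passed the threshold, against 1.06% of all genes. An unadjusted p under 0.05 (limma) was found for 1 of 11 (9.09%), against 13.0% of all genes. In no member of the class were the groups apart, which was so for 17.7% of all genes. Pcdh17, a member of the delta group that is known for roles in synapse and axon development, led them. It lay at 7.20, 7.92 and 7.22 in the vehicle and at 8.94, 8.58 and 7.76 in the Nrg libraries, so that only Vehicle 2 and Nrg 3 crossed. The difference was 0.98 ± 0.33 (adjusted p 0.176, limma). The pooled level was 2.28 times higher in the Nrg group (2.00 to 2.60), but 1.39 times (1.07 to 1.83) against Vehicle 2 alone, and without the deep libraries the log2 difference was 0.51. Pcdh17 took 17.9%, 17.7% and 15.1% of the reads of its class in Vehicle 1 to 3, against 31.2%, 28.6% and 19.6% in the Nrg libraries.

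Pcdh10, which binds the WAVE complex, lay at 8.19, 9.30 and 8.23 in the vehicle and at 9.01, 8.90 and 9.04 in the Nrg libraries. Vehicle 2 was the highest of all and the deep pair the lowest, so the difference of 0.41 ± 0.31 (adjusted p 0.638, limma) had the opposite sign, -0.32, when the deep libraries were left out. Its pooled ratio of Nrg to vehicle was 1.71 (1.54 to 1.90) over all libraries and 0.808 (0.679 to 0.965) against Vehicle 2. Pcdh7 lay at 5.96, 6.92 and 6.93 against 7.61, 7.20 and 6.75, a difference of 0.58 ± 0.35 (adjusted p 0.521). Pcdh9, which is abundant in neurons and glia, had the lowest difference of the class, at 7.23, 7.72 and 7.55 against 7.31, 7.04 and 6.62 (-0.51 ± 0.30, adjusted p 0.518).

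The groups of the remaining members of this class also overlapped. Pcdh1 differed by -0.07 ± 0.38, Pcdh8 by 0.14 ± 0.46, Pcdh18 by -0.29 ± 0.52, Pcdh20 by 0.15 ± 0.54 and Pcdh15, of the hair cell tip link, by 0.52 ± 0.52. Pcdh19, an X-linked gene whose loss causes an epilepsy of girls and women, was the most even member of the class, at 5.67, 5.36 and 5.80 against 5.50, 5.64 and 5.72 (0.01 ± 0.37). Pcdh12, known from endothelium, had 19, 0 and 67 reads in the vehicle and 1 read in each Nrg library, and its difference of 0.61 ± 0.46 had the opposite sign to that of Cdh5 and of the endothelial list. With 1 read per Nrg library, this sign cannot be resolved at this depth.

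Neuron and astrocyte markers were also higher in the Nrg libraries, as were Cdh20 and Pcdh17. The 8 neuron genes summed to 2347 to 4590 normalized counts in the vehicle and 6328 to 8698 in the Nrg libraries, and the 8 astrocyte genes to 25825 to 37961 and 47251 to 47711. All 16 differences were positive and 0 passed the threshold, and no gene of either list was at 0 in any library. Oligodendrocyte progenitor markers summed to 1030 to 2050 and 1999 to 3446, with 5 of 8 differences positive. C1ql1 was the 1 gene of that list past the threshold, and rose by 1.99 (adjusted p 0.0382, limma). In Nrg 1 to 3 the progenitor sum was 3446, 2707 and 1999, the neuron sum 6328, 8698 and 6353, and the astrocyte sum 47287, 47711 and 47251. In Vehicle 1 to 3 the progenitor sum was 1529, 2050 and 1030, whereas Cdh20 was steady there. The part of these cell types in the Cdh20 and Pcdh17 values was not tested.

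Per kilobase of exon (GENCODE M21), levels can be set side by side for the 36 genes outside the clusters. Cdh20 had the highest mean over the 6 libraries, 32.4 normalized counts per kilobase, followed by Pcdh10 with 28.5, Pcdh9 with 22.4, Pcdh17 with 20.6, Cdh2 with 18.5 and Cdh22 with 18.0. Neighbours in this order did not differ beyond their spread over the libraries, which ran from 19.5 to 65.7 for Cdh20, from 18.2 to 39.4 for Pcdh10 and from 13.9 to 30.5 for Pcdh9. By the median of the vehicle libraries Pcdh9 stood first with 27.0, ahead of Cdh20 with 19.5, Cdh2 with 18.9 and Pcdh10 with 18.6. By the median of the Nrg libraries Cdh20 stood first with 44.6, ahead of Cdh3 with 38.9, Pcdh10 with 32.2 and Pcdh17 with 29.1. Cdh18, Cdh7 and Cdh16, the lowest, had means of 0.109, 0.212 and 0.365.

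**Figure D4:**
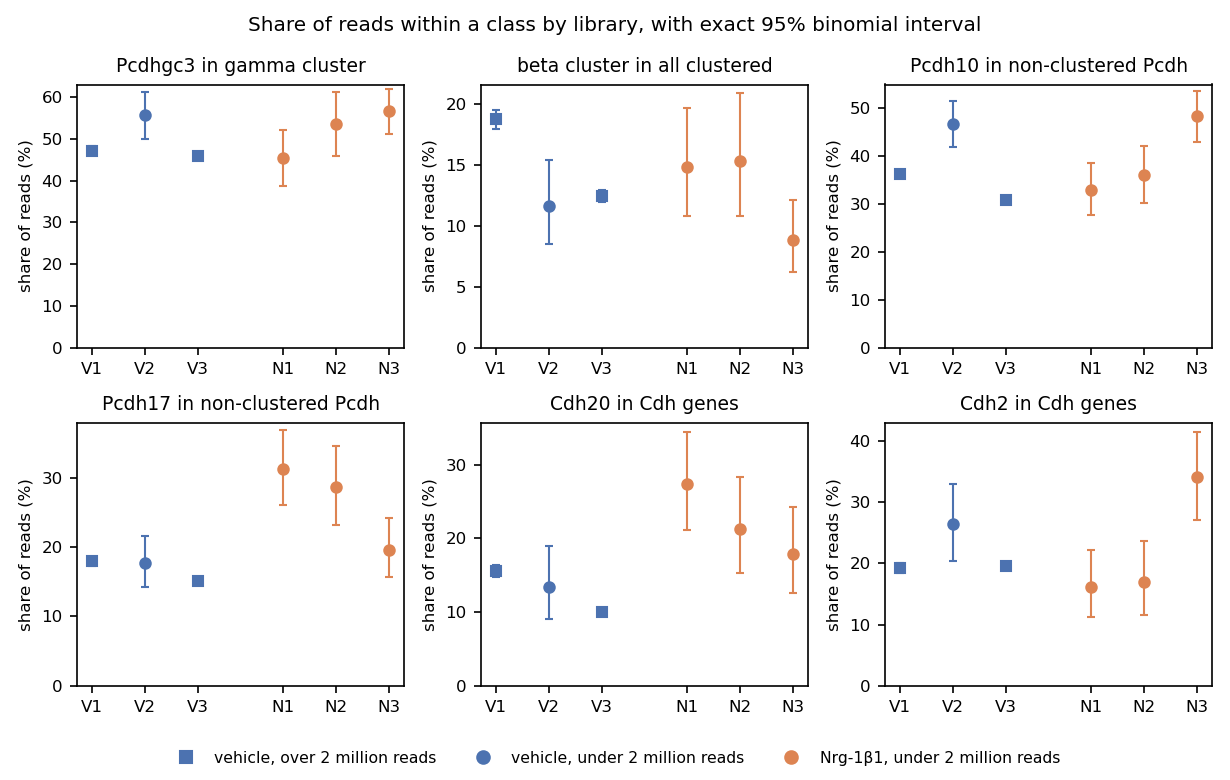
Share of the reads of a class taken by 1 gene, or of clustered reads taken by the beta cluster, in each library (percent, exact 95% binomial interval, counting error only). The Cdh20 and Pcdh17 shares of all Nrg-1β1 libraries are above those of all vehicle libraries, and the other 4 panels overlap.

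The 55 clustered genes had 36 positive and 19 negative differences (65.5% positive, against 52.2% of all genes), with a median of 0.28. None passed the threshold, against 1.06% of all genes, and the smallest adjusted p was 0.354 (limma). An unadjusted p under 0.05 (limma) was found for 1 of 55 (1.82%), against 13.0% of all genes. Fewer than 10 Nrg reads lay behind 38 of the 55: all 12 alpha, 19 of 22 beta and 7 of 21 gamma genes. The count of positive differences was 30 of 55 without the deep libraries and 42 of 55 with library medians aligned. Alpha genes share their last exons, and so do gamma genes. In GENCODE M21 all 12 alpha and all 21 gamma genes here shared exons with other genes (a median of 2860 and 2525 shared bases), against 3 of 22 beta genes, which are mostly single-exon genes. The sources used here do not say how reads in shared exons were assigned, so the split among alpha or gamma genes is uncertain and the sums of a cluster are the safer values.

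The gamma cluster held most clustered reads, from 80.2% to 87.2% in the vehicle and from 81.0% to 89.9% in the Nrg libraries. Its sums were 479, 969 and 852 normalized counts in the vehicle and 1126, 904 and 1051 in the Nrg libraries, which overlap. The mean log2 difference of the sums was 0.48, and 0.08 with Vehicle 2 alone for the vehicle group. Pcdhgc3, a C-type isoform that is expressed broadly rather than chosen at random, took 45.4% to 56.6% of gamma reads in every library. It lay at 7.85, 9.09 and 8.63 in the vehicle and at 9.01, 8.93 and 9.23 in the Nrg libraries, a difference of 0.54 ± 0.31 (adjusted p 0.507, limma). The pooled ratio of 1.74 (1.57 to 1.93) became 1.00 (0.839 to 1.21) against Vehicle 2 alone.

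The other C-type gamma genes differed little. Pcdhgc5 differed by 0.05 ± 0.42 (5.50, 5.82 and 6.03 against 6.25, 4.88 and 6.38) and Pcdhgc4, an isoform tied to neuron survival, by -0.27 ± 0.52 on 6 Nrg reads. Pcdhga5 was the gamma gene with the smallest p, at 3.26, 3.73 and 4.17 against 4.90, 4.88 and 4.47, a difference of 1.03 ± 0.51 (adjusted p 0.406, limma) on 5, 5 and 6 Nrg reads. Among the gamma genes with more reads, Pcdhga6 differed by 0.59 ± 0.43, Pcdhga11 by 0.29 ± 0.41, Pcdhga12 by 0.35 ± 0.44, Pcdhgb6 by 0.28 ± 0.42, Pcdhga7 by 0.21 ± 0.51 and Pcdhgb7 by 0.01 ± 0.47, and the groups of all 6 overlapped. Over the gamma cluster 14 of 21 differences were positive.

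Beta genes were split evenly, with 12 positive and 10 negative differences. Their sums were 112, 130 and 123 normalized counts in the vehicle and 207, 169 and 103 in the Nrg libraries, so Nrg 3 lay below all vehicle libraries and the other Nrg libraries above them. All 22 genes had a read in both deep libraries, against 13 to 18 of them in the other 4. The 2 members with the smallest p in this cluster had lower values in most Nrg libraries. Pcdhb12 had 112, 1 and 80 reads against 0, 0 and 1 (-0.86 ± 0.45, adjusted p 0.448, limma). For Pcdhb20 the reads were 105, 4 and 116 against 0, 0 and 3 (-1.05 ± 0.56, adjusted p 0.453, limma). Their pooled ratios of Nrg to vehicle were 0.241 (0.006 to 1.36) and 0.619 (0.127 to 1.83), counting error only. Both intervals included 1. Pcdhb1 had 4, 1 and 22 reads against none, and its level in both deep libraries was below the value of 1 Nrg read.

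The alpha cluster was the least covered. Its 12 genes together had 98, 4 and 235 reads in the vehicle and 11, 5 and 5 in the Nrg libraries, which made 5.93, 12.3 and 14.2 against 56.8, 25.5 and 15.2 normalized counts. Every Nrg sum was above every vehicle sum, the only class for which this held, but Nrg 3 exceeded Vehicle 3 by less than the value of 1 Nrg 3 read (3.04). Alpha genes took 0.993%, 1.11% and 1.44% of clustered reads in Vehicle 1 to 3, with 95% binomial intervals of up to 2.82% in Vehicle 2, and 4.09% (2.06% to 7.20%), 2.33% and 1.30% in the Nrg libraries. Over the cluster 10 of 12 differences were positive. The 2 negative genes, Pcdhac2 and Pcdha3, were the 2 without any Nrg read. The signs thus matched which genes had an Nrg read, so a rise across the cluster and unequal depth cannot be told apart. Pcdha10 was the clustered gene with the smallest p, with 0, 0 and 15 reads against 2, 2 and 0 (1.13 ± 0.51, adjusted p 0.354, limma). Its identifier in the table is named Pcdha11 in GENCODE M21, so which of the neighbouring genes it is remains uncertain. The C-type genes Pcdhac1 and Pcdhac2 differed by 0.24 ± 0.37 and -0.57 ± 0.40. Pcdhac1 had 1 Nrg read in all, and Pcdhac2 none against 25, 0 and 90 vehicle reads.

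**Figure D5:**
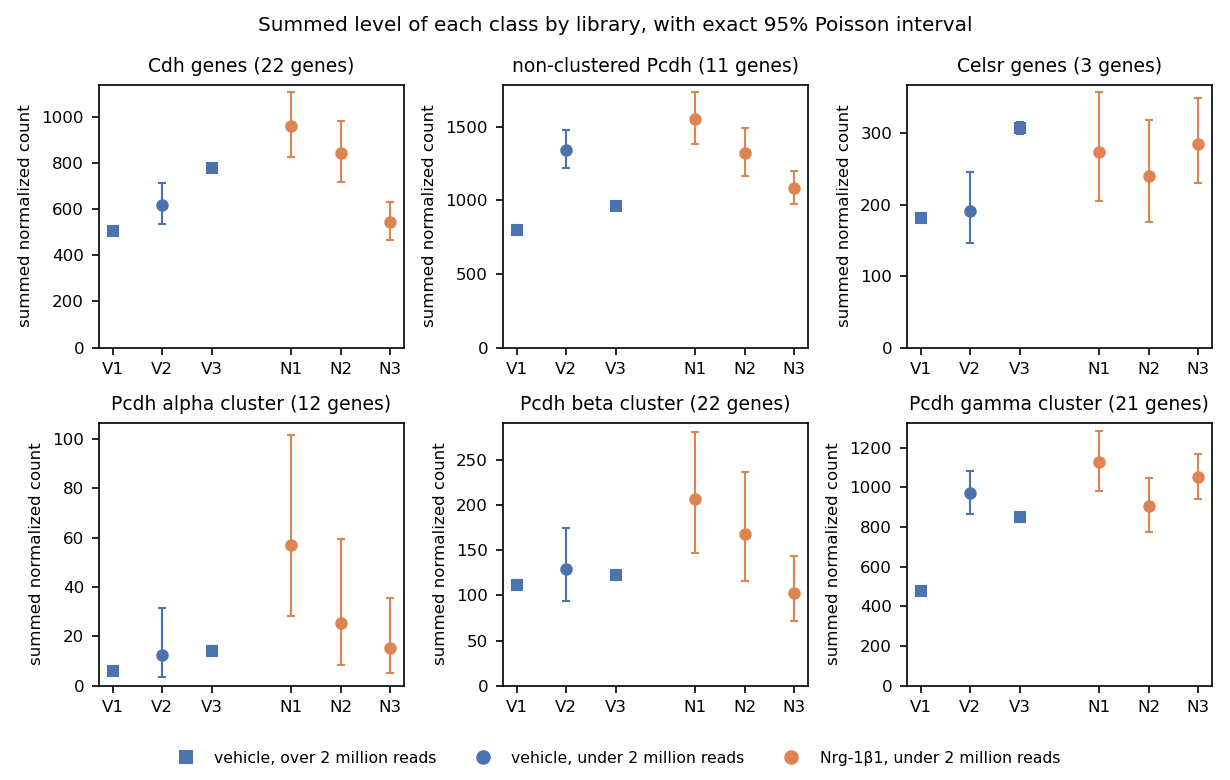
Summed normalized count of each class in each library, with the exact 95% Poisson interval of its reads (counting error only; V1 to V3 vehicle, N1 to N3 Nrg-1β1, squares for the deep libraries). The groups overlap in every class but the alpha cluster, whose values rest on between 4 and 235 reads.

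The sums of the other classes overlapped as well. Cdh genes summed to 505, 620 and 779 normalized counts against 961, 843 and 544, and non-clustered protocadherins to 799, 1346 and 961 against 1555, 1323 and 1085. For the non-clustered class the mean log2 difference of 0.37 became -0.04 with Vehicle 2 alone for the vehicle group, since Vehicle 2 lay above 2 of the 3 Nrg libraries. These sums are descriptions and were not tested.

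The 3 Celsr genes had reads in all libraries, with 2 of 3 differences positive and a smallest adjusted p of 0.493. Celsr2 lay at 7.05, 7.13 and 7.44 in the vehicle and at 7.65, 7.34 and 7.52 in the Nrg libraries (0.29 ± 0.29, adjusted p 0.709, limma). Celsr1, which is known from ependymal and progenitor cells, lay at 5.36, 5.36 and 6.83 against 5.66, 5.78 and 5.80 (-0.11 ± 0.42), with Vehicle 3 the highest library. Celsr3, known for axon tract formation, lay at 4.32, 4.49 and 4.97 against 5.13, 5.11 and 5.88. All its Nrg values were above all its vehicle values, and the difference was 0.78 ± 0.45 (adjusted p 0.493).

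Among 76 measured partner genes in 6 lists, 0 passed the threshold by limma. limma-voom, which called few genes of any kind, also called 0. By unadjusted p under 0.05 (limma) there were 8 (10.5%, against 13.0% of all genes). Of these, 3 were among the 9 cadherin shedding proteases (33.3%) and 3 among the 14 regulators of clustered protocadherin choice (21.4%). The other large cadherins and the polarity partners had 1 of 12 each (8.33%), and the catenin and WAVE lists 0. The 16 catenins and junction adaptors, which tie cadherin tails to actin, had a median difference of 0.07, with 10 positive. Beta-catenin, Ctnnb1, was even, at 10.64, 10.37 and 10.75 against 10.62, 10.68 and 10.68. Ctnnd2, the delta-catenin of neurons, differed by 0.46 ± 0.27 and Afdn, afadin, by -0.58 ± 0.35 (adjusted p 0.503 and 0.526). The 12 measured large cadherins of other families had a median of 0.20, with 8 positive, and Dchs2 was blank. Clstn3, a calsyntenin of synapses, lay at 6.79, 7.13 and 6.75 against 7.95, 8.02 and 7.39, with no overlap and a difference of 0.90 ± 0.30 (adjusted p 0.165). Fat2, a giant cadherin, differed by 0.90 ± 0.53 on 4 Nrg reads (adjusted p 0.514).

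The 12 planar cell polarity partners of Celsr had a median of 0.03, with 7 positive. Fzd6, a Frizzled receptor of that pathway, was the exception, at 5.27, 5.90 and 6.51 in the vehicle and at 4.90, 2.00 and 4.66 in the Nrg libraries. It had no read in Nrg 2, and the difference was -2.04 ± 0.64 (adjusted p 0.131, limma). Dvl3, a Dishevelled protein, differed by 0.63 ± 0.42 (adjusted p 0.571). The 13 genes of the WAVE complex and of kinases bound by protocadherins had a median of 0.11, with 10 positive. In this list the kinase Fyn differed by 0.47 ± 0.27 and the WAVE subunit Brk1 by 0.59 ± 0.48 (adjusted p 0.507 and 0.668).

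Both remaining lists had lower sums in all Nrg libraries. The 9 proteases and gamma-secretase parts that shed and cut cadherins summed to 814, 852 and 941 normalized counts in the vehicle and 656, 628 and 653 in the Nrg libraries, with 7 of 9 differences negative and a median of -0.27. Adam17 lay at 6.57, 6.81 and 6.79 against 6.04, 5.49 and 4.47 (-1.39 ± 0.40, adjusted p 0.0980, limma). Adam10, the sheddase of N-cadherin and E-cadherin, lay at 6.35, 7.22 and 7.67 against 6.67, 6.03 and 5.34 (-1.07 ± 0.40, adjusted p 0.232). The 14 regulators of clustered protocadherin choice, which include CTCF and the cohesin ring, summed to 1236, 1525 and 1641 against 1188, 1108 and 1118, with 11 of 14 differences negative and a median of -0.45, against 0.03 over all genes. Stag2, an X-linked cohesin subunit, lay at 7.40, 7.76 and 7.78 against 7.11, 6.73 and 6.08 (-1.004 ± 0.32, adjusted p 0.147), and Smc1a, another X-linked subunit, differed by -0.72 ± 0.32 (adjusted p 0.331). Stag2, Smc1a and Nipbl were the 3 regulators with an unadjusted p under 0.05 (limma). Ctcf itself differed by -0.01 ± 0.32. Microglia markers were low in the same libraries, with summed levels of 5229 to 7630 normalized counts in the vehicle and 1854 to 2442 in the Nrg libraries, all 8 differences negative, 6 of 8 past the threshold and Aif1 at 0 in 1 library, and so were the endothelial markers given above. The part of these cells in the protease and regulator values was not tested. The Xist difference between the groups stands beside the values of both X-linked genes, and its part in them was not tested.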

How the data were processed

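RNA-seq libraries of GFP-positive hippocampal cells from 3 vehicle and 3 Nrg-1β1 mice were compared. Trimmomatic and Bowtie2 are the tools in the submitters' processing notes. Tool versions, build, counting method, strandedness, scaling and filtering were not given in the sources used here. The deposited table holds log2 values for 27102 rows, of which 6779 were blank throughout. The deposited log2 values were read, from the values alone, as log2(normalized count + 4): after 4 was subtracted, 100% of the values in each library were within 0.02 of a whole number of reads. Reads recovered this way gave the depth, from 567073 to 72953034 per library.

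limma 3.58.1 (R 4.3.3) with an intensity trend and group as the only term was fitted to all 20323 genes, with Benjamini-Hochberg adjustment at 0.05, and was tested on simulated data. The count model planned for count tables was not used as the main test, since the unit is log2. limma-voom was fitted to the recovered reads as an alternative only. Ratios of pooled normalized counts have exact 95% intervals and sums have exact Poisson intervals. Both cover counting error only, since reads without molecular identifiers are not independent molecules. Shares have Clopper-Pearson intervals. Summed class levels were not tested. Exon lengths and shared exons are from GENCODE M21, matched by gene identifier, and upstream sequences from RefSeq (GRCm38.p6).

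The members, the 6 partner lists and the 11 marker lists were chosen with earlier results of these data known. Members with values are the 12 Cdh, 8 non-clustered and 8 clustered genes with the most reads, the 10 with the smallest p, and a fixed set that covers the main adhesion and C-type genes. Each partner list gives the 2 genes with the smallest p. Cdh12, Ctnnb1, Ctcf, Nipbl, Cldn5, Flt1 and the marker genes named were added after their values were seen. Because each animal gave 1 library, p-values measure the spread between animals together with that between library preparations. Alternatives were a filter on low values, quantile normalization, alignment of library medians, a pseudocount of 1, limma-voom with either scaling, the libraries under 2000000 reads, a replicate block and each library left out.

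Of the marker lists that stand beside no result above, pericyte and smooth muscle genes summed to 191 to 482 normalized counts in the vehicle and 61.3 to 118 in the Nrg libraries (1 of 8 lower), ependymal to 151 to 954 and 128 to 201 (0 of 8), and neural stem cell and neuroblast genes to 1243 to 1358 and 966 to 1705 (0 of 10).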

Additional observations from a re-analysis of the deposited data

How the results depend on the processing

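Under quantile normalization, the filter on low values and a pseudocount of 1, 0 members were called as before. The count was also 0 with limma-voom, without the deep libraries and without any single library, but those fits called between 0 and 56 of all genes, so their counts say nothing about stability. Library medians aligned on each other gave 3 calls in the family, Cdh5 at -2.04, Cdh1 at -2.03 and Cdh3 at 3.15 (adjusted p 0.0322, 0.0482 and 0.00897, limma), and turned the split of all calls from 89 higher and 127 lower to 335 higher and 164 lower. The labels do not say whether the replicate numbers pair the animals. Correlations of same-numbered libraries over 6731 genes were -0.27, -0.07 and -0.30, and no library correlated best with its own number. The values were centred within each group of 3 and depth was unequal, so these correlations cannot show whether animals were paired. With the number as a replicate block, 627 genes (3.09%), 3 members (Cdh5, Cdh1 and Cdh3) and 2 partner genes were called. Over all genes the count of 216 became 49 with the filter, 65 with quantile normalization, 499 with medians aligned, 129 with a pseudocount of 1, 22 and 14 with limma-voom on the deposited and the total scaling, and 0 without the deep libraries. It ran from 0 to 56 when 1 library was left out, 56 without Vehicle 1, 4 without Vehicle 3 and 0 without any other. In sums, the log2 difference of the non-clustered class was -0.043 and that of the gamma cluster 0.078 without the deep libraries, and that of the alpha cluster 2.38 with medians aligned. Aligning the medians also shifts the values of genes with no read, so such genes add to some alpha sums. In other libraries low alpha values are cut off. The alpha value with medians aligned can therefore not be read as a rise in alpha reads. The cause of the other shifts was not tested.

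Of 612 recomputed differences of named members, 532 kept their sign and their side of the threshold, 6 passed it and 74 changed sign or, for Pcdhac2 without the deep libraries, came to 0, and no difference of Cdh1, Cdh3, Cdh5, Cdh20 or Pcdh17 was among those 74. The differences concerned were these. With library medians aligned Cdh10 0.12, Cdh19 0.12, Cdh4 0.067, Cdh6 0.16, Cdh8 0.18, Cdh9 0.12, Celsr1 0.11, Pcdh1 0.14. With quantile normalization Cdh10 0.027, Cdh19 0.050, Cdh4 0.031. With a pseudocount of 1 Cdh6 0.033. With limma-voom and the deposited scaling Cdh19 0.041, Cdh6 1.37, Cdh8 0.81, Cdh9 1.39, Pcdh18 0.047, Pcdh19 -0.015, Pcdhb1 1.69. With limma-voom and total reads as library size Cdh19 0.016, Cdh4 0.030, Cdh6 1.39, Cdh8 0.92, Cdh9 1.41, Pcdh18 0.17, Pcdhb1 1.88. Pcdhb1 had 4, 1 and 22 vehicle reads and none in the Nrg libraries. Its positive limma-voom differences thus come from how the method treats 0 reads at unequal depth. Cdh9 and Cdh6 had 1 and 3 Nrg reads in all. Without the 2 deep libraries Cdh2 -0.030, Cdh23 -0.014, Cdh26 1.01, Celsr1 0.39, Pcdh1 0.065, Pcdh10 -0.32, Pcdh15 -0.0073, Pcdh18 0.015, Pcdhac2 0, Pcdhga12 -0.14, Pcdhga7 -0.32, Pcdhgc3 -0.031. Leaving out 1 library in turn changed the sign of 17 named members, which ran Cdh10 from -0.19 to 0.012, Cdh19 from -0.55 to 0.25, Cdh23 from -0.30 to 0.42, Cdh26 from -1.04 to 0.27, Cdh4 from -0.26 to 0.043, Cdh6 from -0.40 to 0.40, Cdh8 from -0.43 to 0.49, Cdh9 from -0.49 to 0.11, Celsr1 from -0.35 to 0.39. The others of them ran Pcdh1 from -0.30 to 0.26, Pcdh18 from -0.54 to 0.13, Pcdh19 from -0.12 to 0.10, Pcdh20 from -0.068 to 0.58, Pcdhac1 from -0.029 to 0.38, Pcdhga7 from -0.20 to 0.48, Pcdhgb7 from -0.25 to 0.29, Pcdhgc5 from -0.21 to 0.53.

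Depth is a limit throughout. In the Nrg libraries 1 read is worth between 3.04 and 5.17 normalized counts, so a difference of a member below that level rests on single reads, and a missing call does not show equal levels. With 3 animals per group, treatment stands together with depth and with Xist.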

Other observations

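Cdh3 was high in Nrg 1 and Nrg 2 and low in the other 4 libraries. After its values were seen, all 20323 genes were ranked by the same pattern, as the lower of the Nrg 1 and Nrg 2 values minus the highest of the other 4 values on the log2 scale. Cdh3 stood at rank 2 with a gap of 3.88. Ndufa8, a subunit of respiratory complex I, stood first with 4.05, Lrrc17, a secreted leucine-rich repeat protein, came after Cdh3 with 3.68, and Zrsr1, an imprinted splicing factor gene, followed with 2.90. Ndufa8 had 869, 3 and 523 reads in the vehicle and 181, 199 and 6 in the Nrg libraries, and Lrrc17 had 245, 1 and 77 against 46, 238 and 3. Zrsr1 was the 1 gene of these 4 past the threshold (3.16, adjusted p 0.00965, limma). The ranking was made on the libraries in which the pattern was seen, so it is a description, and no relation between these genes was tested.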
